A study of Mus musculus and Rattus norvegicus with 11 samples.

Results

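Nerve cells of NOD mice labelled Icam1 knockout were compared with the same cell sets of C57BL/6 mice. Members were chosen by library and by the cell type name that the authors deposited for each barcode: barcodes of the 3 knockout-labelled NOD libraries against those of the 3 C57BL/6 libraries, in 5 sets that carry matching names. The sets were nmSC, mySC, EC (named EC in the NOD libraries and EC1 in C57BL/6), T cells (CD4 and CD8 against TC) and B cells (BC). They held 7661 cells, out of 10325 named cells in these 6 libraries and 28550 barcodes in the 11 samples of the series. The series holds droplet 3′ single-cell RNA libraries of peripheral nerve from 9 mouse samples and from naive Lewis rats. Mouse cells were freed by enzymes from the sciatic nerve and the brachial plexus of perfused animals, cleared of myelin and sorted for viability. The C57BL/6 mice are described as undiseased, and the NOD mice carrying the label ICAM-1-1/-NOD (ICAM-1-/-NOD in the design text) as a model of chronic autoimmune neuritis. Ages, sexes, the deleted part of Icam1 and whether animals were pooled are not stated in the labels. Strain and genotype label change together in this comparison, so their contributions cannot be told apart. Values of the 3 NOD control libraries, which have the strain without the label, are given beside some results for reference only.

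Icam1 encodes an adhesion molecule on endothelium and leukocytes that lymphocytes bind through integrins when they leave the blood. NOD mice are an inbred strain prone to autoimmunity, and NOD mice that lack Icam1 are studied as a spontaneous autoimmune disease of peripheral nerve. In inflamed nerve, T cells and B cells enter the endoneurium, and interferon gamma from T cells raises genes of antigen presentation on the resident cells. Schwann cells are the glia of the nerve and either wrap single axons in myelin (mySC) or support small fibres (nmSC).

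Libraries of C57BL/6 1, 3 and 4, as the labels number them, held 993033, 6631004 and 571042 UMIs (unique molecular identifiers, one per captured transcript), and knockout-labelled libraries 1, 2 and 3 held 2235353, 2124358 and 1977541. Values per library below follow this order and are CPM, the UMIs of a gene scaled to 1000000 UMIs of the set in that library. The labels do not say that the 3 libraries of a group came from separate animals, so p-values measure only the spread between these libraries, which may be technical. Between 0 and 12 barcode sequences were shared by any pair of the 6 libraries. The knockout-labelled libraries resembled each other closely: the chi-square per degree of freedom between their summed counts was 1.30 to 2.94 over sets and pairs, against 2.08 to 31.8 between C57BL/6 libraries. Haemoglobin made up 0.861% of C57BL/6 4 and 0.789% to 0.941% of the knockout-labelled libraries, and next to none of C57BL/6 1 and 3.

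The names of the 3 nerve sets were checked against marker genes. Cells named EC carried vascular endothelial markers at 10987 to 13008 CPM summed over the list in all 6 libraries. Cells named mySC carried pan-Schwann markers at 3345 and 5183 CPM in C57BL/6 1 and 3 and 4904 to 5139 CPM in the knockout-labelled libraries. Their myelinating markers stood at 7656 and 7443 CPM against 11517, 7127 and 7688 CPM, with overlapping ranges. Cells named nmSC went against their name: fibroblast markers summed to 72435 to 126815 CPM and pan-Schwann markers to only 94.4 to 355 CPM, with the Schwann cell genes Erbb3 and Sox10 at 0 UMIs in the knockout-labelled cells. The set is called nmSC below only because that is its deposited name.

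Icam1 itself did not behave as its label reads. Over whole libraries Icam1 stood at 81.6, 88.5 and 47.3 CPM in C57BL/6 and at 246, 259 and 254 CPM in the knockout-labelled libraries, so that each knockout-labelled library was above each C57BL/6 library. The NOD control libraries stood at 94.5, 44.1 and 55.0 CPM. Whole-library values also depend on the mix of cell types, which differed between the groups. In T cells, Icam1 was measured at 89.6, 69.4 and 57.2 CPM against 289, 297 and 271 CPM and rose by a log2 fold change of 1.51 ± 0.31 (SE, 3 against 3 libraries; edgeR adjusted p = 0.00455). It rose in nmSC too, from 7.55, 25.8 and 0 CPM to 111, 149 and 148 CPM, by 2.60 ± 0.47 (edgeR adjusted p = 0.00507). In B cells the groups overlapped, with 44.3, 176 and 75.8 CPM against 100, 89.1 and 126 CPM and a log2 fold change of -0.03 ± 0.50 (edgeR adjusted p = 0.981). Icam1 did not reach the count filter in mySC and EC. The T cell call was lost when any one knockout-labelled library was left out, and the nmSC call without knockout-labelled library 2. These reads come from the 3′ end of transcripts, and a tag outside a deleted part would not show the deletion, so the label is kept as a label throughout.

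T cells and B cells made up most of the knockout-labelled libraries and a minority of the C57BL/6 libraries. T cells were 9.30%, 2.80% and 30.9% of the named cells in C57BL/6 and 64.1%, 65.1% and 65.8% in the knockout-labelled libraries. B cells were 8.21%, 0.913% and 7.42% against 22.5%, 21.4% and 21.02%. Neither range overlapped between the groups, and the knockout-labelled libraries stood within a few points of each other while the C57BL/6 libraries did not. All leukocytes together, myeloid cells included, were 27.5% ± 21.1 (SD, n = 3) of the C57BL/6 cells and 91.6% ± 0.185 (SD, n = 3) of the knockout-labelled cells. The difference of 64.2 points had an exact two-sided permutation p of 0.1, which is the smallest that 3 against 3 libraries allow.

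Structural cells were correspondingly scarce. Cells named fibro fell from 29.3%, 31.1% and 19.9% to 0.260%, 0.448% and 0.444%, a log2 fold change of -6.09 ± 0.73 in a count model over cell classes (edgeR adjusted p = 6.71e-07). Mural cells of vessel walls had a log2 fold change of -4.89 ± 0.77, nmSC of -2.65 ± 0.61 and EC of -2.53 ± 0.61. The small classes EC2, with 4, 18 and 0 cells in C57BL/6, and lymph, with 4, 21 and 0, had 0 cells in the knockout-labelled libraries. Endothelial names differ between the groups, EC in the NOD libraries and EC1 in C57BL/6. Whether such NOD cells were named EC was not tested, so these 0 counts are not read as scarcity. In all, 8 of 10 classes passed, EC2 and lymph included. Of the 8, T cells (2.21 ± 0.73) and B cells (2.01 ± 0.71) were higher. The mySC share did not pass the test, at 3.60%, 9.83% and 1.79% against 2.99%, 1.57% and 2.77%, and neither did the myeloid share, at 7.79%, 3.79% and 11.3% against 5.00%, 5.04% and 4.99%. With TMM factors on the class counts in place of the number of named cells, 6 classes passed, and nmSC (-1.001; edgeR adjusted p = 0.081) and EC (-0.86; edgeR adjusted p = 0.081) lost their calls. The fold changes of mySC and myeloid cells, not called in either fit, were then 0.57 and 1.012, against -1.10 and -0.58. Without C57BL/6 1, only 5 classes passed, all lower, and T cells and B cells no longer did. Shares sum to a whole, so a gain in 1 class lowers the others without any loss of cells.

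**Figure D1:**
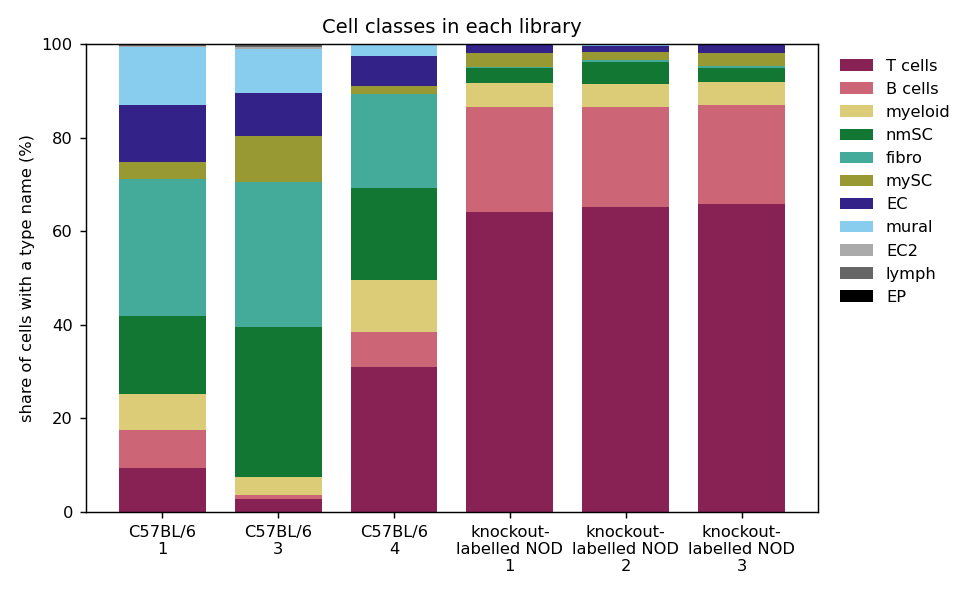
Share of each cell class among named cells (percent, stacked to the whole of each library) in the 3 C57BL/6 and 3 knockout-labelled NOD libraries. T cells take 64.1% to 65.8% of the knockout-labelled libraries and 2.80% to 30.9% of the C57BL/6 libraries.

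Because lymphocytes dominate the knockout-labelled libraries, their markers were followed in every set. In nmSC, the summed T cell list of 10 genes stood at 7.55, 3.37 and 90.6 CPM in C57BL/6 and 446, 572 and 634 CPM in the knockout-labelled libraries. The same list stood at 0 and 3.23 against 503, 914 and 597 CPM in mySC, and in EC at 0 CPM in each C57BL/6 library against 601, 316 and 501 CPM. Thus T cell transcripts were counted in all 3 nerve sets of the knockout-labelled libraries, where 10 of 10 members had UMIs, and were lower in C57BL/6, where 10 of 10 members were at 0 in EC, 9 of 10 in mySC and 2 of 10 in nmSC. The summed B cell list behaved alike, at 7.55, 12.4 and 0 against 203, 489 and 324 CPM in nmSC and 40.3 and 12.9 against 604, 343 and 649 CPM in mySC. Among lymphocytes, the B cell list in T cells stood at 67.2, 154 and 310 against 633, 688 and 833 CPM, and the T cell list in B cells at 207, 146 and 228 against 989, 899 and 1042 CPM. Barcodes with UMIs of 2 or more markers of another lineage (cross-lineage barcodes) made up 12.2% to 26.0% of knockout-labelled nmSC and mySC cells and at most 1.30% of those of C57BL/6. In EC they made up 3.85% to 23.3% against at most 0.685%. In T cells they made up 0.901%, 26.7% and 4.13% of C57BL/6 1, 3 and 4, against 13.6% to 16.7%. In B cells the shares were 2.04%, 24.2% and 0% against 20.7% to 25.4%, so C57BL/6 3 held many as well. NOD control libraries 1, 2-1 and 2-2 held 16.7%, 57.7% and 65.6% in T cells and 28.6%, 59.1% and 59.9% in B cells. NOD control 1 had only 20 mySC, 42 T and 7 B cells, so its values in these sets rest on few UMIs. Each gene comparison was therefore also run without these barcodes, and the counts that remained called are given per set. Barcodes with fewer than 2 markers of another lineage stayed in. These counts therefore cannot show how far transcripts of other cells enter the values.

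**Figure D2:**
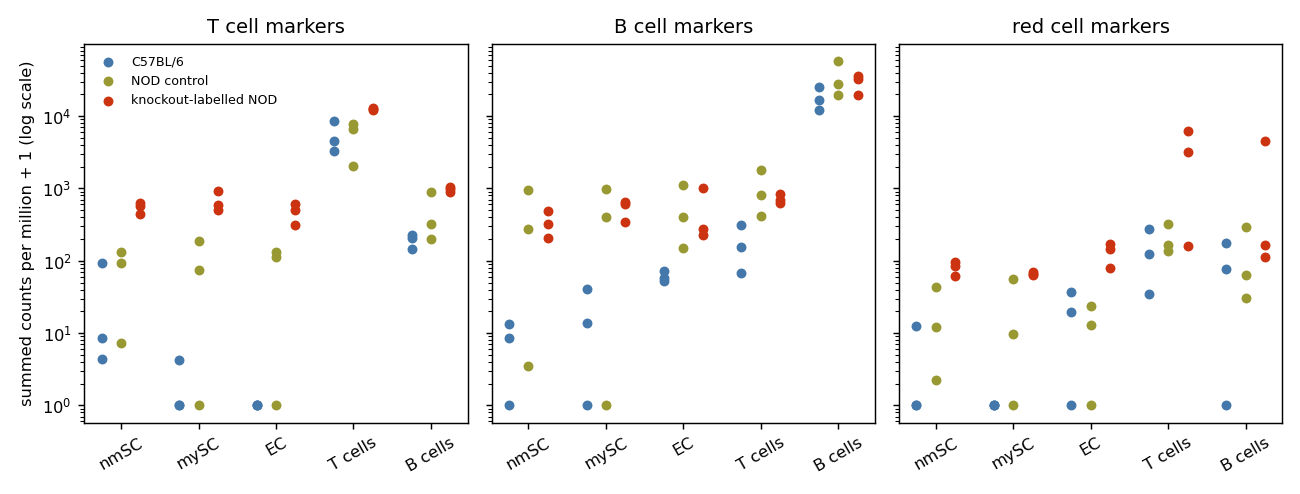
Summed CPM + 1 (log scale) of the T cell, B cell and red cell marker lists in the 5 cell sets, 1 point per library, for C57BL/6, NOD control and knockout-labelled NOD. In nmSC, mySC and EC, T cell markers lie between 316 and 914 CPM in the knockout-labelled libraries and at most at 90.6 CPM in C57BL/6.

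Genes of antigen presentation and of the interferon gamma response were higher in knockout-labelled mySC, and immediate early genes were lower than in C57BL/6 1 and 3. Of 1626 genes tested, 112 rose and 106 fell (13.4% called; 6.89% up, 6.52% down), with 46, 28 and 50 knockout-labelled cells against 43 and 355 cells of C57BL/6 1 and 3. C57BL/6 4 held 7 mySC cells and was left out. The median log2 fold change over all tested genes was 0.06. Leaving out 1 library moved the count of 218 to 380 without C57BL/6 1, and to 127, 141 and 108 without knockout-labelled libraries 1, 2 and 3. With equal cells per library, 30 of 43 of the genes named below that were still tested stayed called. Of the genes named below that could still be tested, 44 of 45 stayed called without cross-lineage barcodes, 31 of 52 without C57BL/6 3, and 30 of 54 with the knockout-labelled libraries summed as 1 sample.

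MHC class I molecules present peptides from inside the cell to CD8 T cells. In mySC, 12 of the 16 tested class I and peptide loading genes rose and 0 fell, with a median log2 fold change of 1.76. H2-D1, a class I heavy chain, stood at 766 and 1723 CPM in C57BL/6 and at 8600, 9182 and 8298 CPM in the knockout-labelled libraries, a log2 fold change of 2.58 ± 0.36 (edgeR adjusted p = 0.000399). H2-K1, the other main heavy chain, stood at 403 and 424 against 2339, 2558 and 2286 CPM and rose by 2.38 ± 0.33. Both were far outside the range of the C57BL/6 libraries, and the NOD control libraries were below them as well, at 76.4 to 428 CPM for H2-D1 and 150 to 229 CPM for H2-K1. The nonclassical class I gene H2-T23, whose product is a ligand of natural killer receptors, went from 0 and 16.2 to 578, 845 and 558 CPM (5.21 ± 0.51; edgeR adjusted p = 3.06e-05). H2-Q7 rose by 4.09 ± 0.47, and its neighbour H2-Q6, with 1 UMI in C57BL/6 against 97, had a pooled ratio of 162 (95% exact interval 28.4 to 6455). Tap1, which carries peptides into the endoplasmic reticulum, stood at 40.3 and 35.6 against 289, 274 and 338 CPM and rose by 2.89 ± 0.42. The Tap1 call was lost with equal cells per library and without C57BL/6 3. MHC genes are close copies of each other and their haplotypes differ between NOD and C57BL/6, so the counts of single H2 genes are uncertain between strains.

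Interferon gamma response genes followed the same direction in mySC, with 8 of 10 tested members rising, 0 falling and a median of 2.47. The interferon-inducible GTPases Igtp, at 0 and 64.7 against 390, 343 and 325 CPM, and Irgm1, at 80.6 and 38.8 against 578, 228 and 273 CPM, rose by 2.46 ± 0.44 and 2.94 ± 0.54. No knockout-labelled library came down to the C57BL/6 level for any of these genes. Gbp2, a guanylate-binding protein, was measured at 121 and 113 against 893, 434 and 740 CPM and rose by 2.48 ± 0.40 (edgeR adjusted p = 0.00109). Ifi47 rose by 2.33 ± 0.36, and Iigp1, with 2 UMIs in C57BL/6 against 76, had a pooled ratio of 63.4 (95% exact interval 17.0 to 533). Igtp, Irgm1 and Ifi47 lost their calls with equal cells per library, and Irgm1 also without C57BL/6 3. NOD control libraries held these GTPase genes at lower levels, with Gbp2 at 153, 8.83 and 33.4 CPM. The type I interferon list was less uniform, with 4 of 9 tested members rising: Zbp1, a sensor of nucleic acids (4.17 ± 0.59), Rtp4 (1.98 ± 0.56), Ifi27l2a (1.90 ± 0.44) and Bst2, which tethers budding viruses to the cell surface (1.31 ± 0.33). Without C57BL/6 3, Zbp1, Ifi27l2a and Bst2 lost their calls. Rtp4 and Ifi27l2a lost theirs without knockout-labelled library 2, Bst2 without library 1 or 3, and Rtp4 and Bst2 with DESeq2.

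Interferon response genes often carry a gamma-activated site, with the letters TTCNNNGAA, or elements bound by IRF proteins that contain GAAANNGAAA. The 250 bases before each RefSeq start site were searched for both motifs on both strands. Of the 8 interferon gamma genes tested in mySC that had a promoter entry, 3 held the first motif (37.5%) and 5 the second (62.5%). Over all 27025 genes with a promoter entry the shares were 8.13% and 3.46%, and over the 1270 such genes tested in mySC 7.17% and 4.41%. Of 15 class I genes, 1 held the first motif and 3 the second. Of 3 class II genes, 0 held either motif. A match is a run of letters and not a measured binding site. The last 150 bases before the start are shown for 3 GTPase genes and for H2-T23, as RefSeq sequence of GRCm38.p6 on the strand of the gene, with bases covered by either motif in capitals. These 4 were picked because they hold a match, while Ifi47, another GTPase gene that rose, held neither.
Igtp (chr11:58199406-58199555, plus strand): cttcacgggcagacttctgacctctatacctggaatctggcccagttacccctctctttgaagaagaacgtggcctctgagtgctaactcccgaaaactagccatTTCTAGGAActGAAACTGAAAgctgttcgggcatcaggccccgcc
Irgm1 (chr11:48871421-48871570, minus strand): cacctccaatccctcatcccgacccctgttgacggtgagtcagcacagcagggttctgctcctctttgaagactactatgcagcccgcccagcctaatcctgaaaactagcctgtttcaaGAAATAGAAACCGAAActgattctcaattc
Gbp2 (chr3:142620513-142620662, plus strand): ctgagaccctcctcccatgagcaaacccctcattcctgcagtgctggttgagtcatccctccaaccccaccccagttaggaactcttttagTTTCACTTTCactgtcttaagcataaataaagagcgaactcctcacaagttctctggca
H2-T23 (chr17:36032702-36032851, minus strand): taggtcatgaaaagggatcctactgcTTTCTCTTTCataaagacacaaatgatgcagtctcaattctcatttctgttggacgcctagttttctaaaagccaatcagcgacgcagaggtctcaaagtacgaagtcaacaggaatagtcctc
Igtp held both motifs side by side, Irgm1 held GAAANNGAAA in overlapping copies, and Gbp2 and H2-T23 held it on the strand opposite the gene. These windows lie on chromosomes 11, 3 and 17.

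MHC class II molecules present peptides to CD4 T cells and are made mainly by B cells, macrophages and dendritic cells. In mySC all 5 tested class II genes rose, with a median log2 fold change of 4.53. Cd74, the invariant chain that guides class II to its peptides, stood at 80.6 and 38.8 CPM in C57BL/6 against 2414, 1553 and 1766 CPM (5.27 ± 0.50; edgeR adjusted p = 2.74e-05). H2-Ab1 rose by 3.99 ± 0.41 and H2-Aa by 4.53 ± 0.50, while H2-Eb1 and H2-DMa, each with 2 UMIs in C57BL/6, had pooled ratios of 73.4 and 28.4. The groups did not overlap for any of the 5. B cells carry these transcripts at a high level, and the part of the B cell transcripts counted in mySC in these values was not tested. Chemokine genes moved in both directions. Ccl5, which draws T cells and is made abundantly by CD8 T cells and natural killer cells, stood at 0 and 3.23 against 754, 548 and 1260 CPM, a pooled ratio of 302 (95% exact interval 53.5 to 11989). Ccl8, with 0 UMIs in C57BL/6, was at least 41.1-fold higher, at 50.3, 594 and 571 CPM. Cxcl14 rose by 2.24 ± 0.50, and Cxcl1, which draws neutrophils, fell by 2.03 ± 0.61, a call lost with DESeq2, without C57BL/6 3 and without any one knockout-labelled library. Vcam1, an adhesion molecule that binds lymphocyte integrins, rose from 40.3 and 25.9 to 138, 137 and 234 CPM (2.48 ± 0.61; edgeR adjusted p = 0.0145), and was the only tested member of the adhesion list. The calls of Cxcl14 and Vcam1 were lost with DESeq2 and without C57BL/6 3, and that of Cxcl14 also without knockout-labelled library 3.

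Immediate early genes are switched on within minutes by growth factors, injury or handling of cells. Of 20 tested in mySC, 16 fell and 1 rose, with a median log2 fold change of -1.92. Fos stood at 7656 and 14547 CPM in C57BL/6 and at 2666, 3426 and 2792 CPM in the knockout-labelled libraries and fell by 2.06 ± 0.31 (edgeR adjusted p = 0.00065). Junb, at 6568 and 8530 against 1848, 2307 and 2091 CPM, fell by 2.00 ± 0.28. Atf3, a marker of nerve injury, fell by 3.23 ± 0.46, from 2982 and 1833 to 101, 320 and 416 CPM. For these 3 genes each knockout-labelled library lay below each C57BL/6 library, and the NOD control libraries lay below C57BL/6 as well, at 4506 to 5346 CPM for Fos and 444 to 535 CPM for Atf3. The 7 mySC cells of C57BL/6 4, left out of the test, went the other way, with the summed immediate early list at 735 CPM against 35501 and 48235 CPM in C57BL/6 1 and 3 and 12523 to 14802 CPM in the knockout-labelled libraries. With this library kept, Fos, Junb and Jun lost their calls. Jund alone rose (1.25 ± 0.37), from 322 and 563 to 918, 1530 and 1377 CPM. The Jund call was lost in 7 of 16 alternatives. Among these were DESeq2, no filter, C57BL/6 4 kept, and leaving out knockout-labelled library 2 or 3. When nmSC and mySC were summed as 1 set, the fold changes of Fos, Junb, Jun and Egr1 turned to 0.20, 0.55, 0.72 and 0.042. The stress list contained 4 genes that fell of 8 tested. Mt1 and Mt2 encode metallothioneins, which bind zinc. Mt1 dropped from 7536 and 6266 to 264, 411 and 260 CPM (-4.63 ± 0.34; edgeR adjusted p = 6.72e-06), the NOD control libraries being between the groups at 764, 1722 and 1346 CPM. Mt2 fell by 2.87 ± 0.47, and the transcription factors and regulators Cebpd and Txnip by 2.89 ± 0.31 and 1.53 ± 0.35, whereas Cebpb rose by 2.16 ± 0.45.

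**Figure D3:**
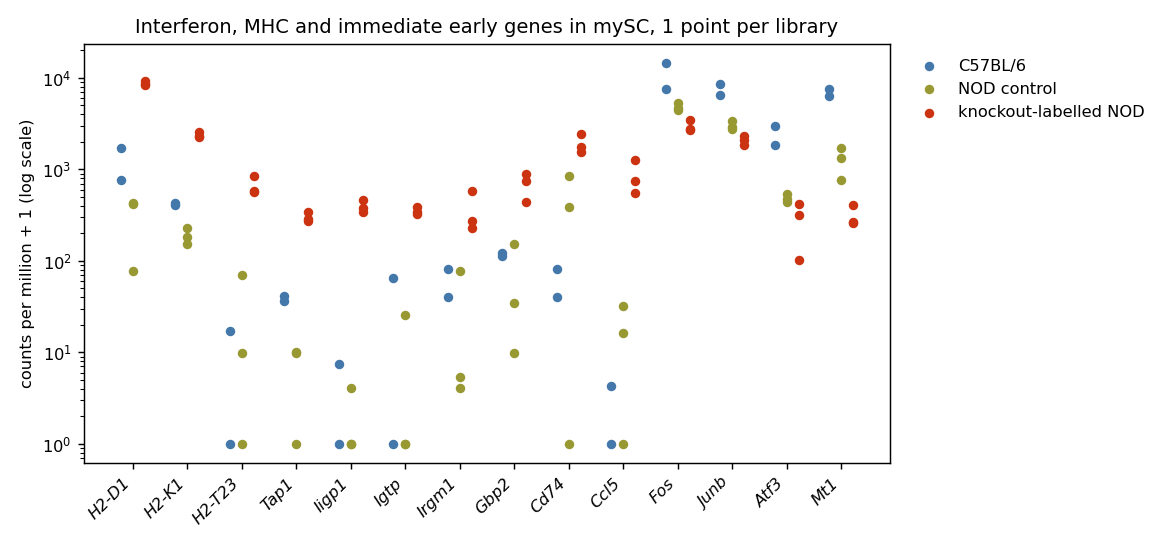
CPM + 1 (log scale) of 14 genes in mySC, 1 point per library, for C57BL/6 1 and 3, the NOD control libraries and the knockout-labelled NOD libraries. Points of MHC and interferon genes are highest in the knockout-labelled libraries, for example Igtp at 325 to 390 CPM, and those of Fos, Junb, Atf3 and Mt1 are highest in C57BL/6.

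Of 12 myelin genes tested in mySC, 2 rose and 0 fell, and the median was 0.16. Over all genes tested in mySC, 13.4% were called, 6.89% up and 6.52% down. Gldn, which gathers sodium channels at nodes of Ranvier, had 3 UMIs in C57BL/6 against 28, a pooled ratio of 15.6 (95% exact interval 4.81 to 80.0). Prx, which encodes the periaxin scaffold of the myelin sheath, stood at 0 and 32.3 against 302, 114 and 143 CPM and rose by 2.56 ± 0.63. Both were also higher in the NOD control libraries, where Prx stood at 535, 689 and 544 CPM. Mag, an adhesion protein on the inner face of myelin, was measured at 242 and 142 against 101, 45.7 and 39.0 CPM without passing the test (-1.43 ± 0.55; edgeR adjusted p = 0.118). Among Schwann cell regulators, 2 of 10 rose and 3 fell, with a median of -0.38. Pou3f1, a factor that promotes myelination (1.41 ± 0.42), and Ngfr, the low-affinity neurotrophin receptor of nonmyelinating and repair cells (1.13 ± 0.34), rose. Egr1 (-2.15 ± 0.36), Jun (-1.45 ± 0.31) and Lgi4, a secreted factor needed for axon sorting (-1.18 ± 0.32), fell. The calls of Pou3f1 and Ngfr were lost when any one knockout-labelled library was left out. That of Jun was lost without library 1 or 2, and that of Lgi4 in 10 of 16 alternatives, among them DESeq2, no filter and leaving out C57BL/6 3 or knockout-labelled library 1 or 3.

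Matrix genes in mySC split. Postn, a matrix protein of growing and injured tissue, stood at 121 and 48.5 against 566, 457 and 779 CPM (3.26 ± 0.45; edgeR adjusted p = 0.000371). Timp1, an inhibitor of matrix proteases, rose by 3.33 ± 0.79, and the collagen genes Col5a2 and Col6a1 rose by 2.04 ± 0.35 and 3.02 ± 0.88, making 2 of 7 collagens. Sparcl1 and Dcn, both matrix proteins, fell by 2.47 ± 0.36 and 1.99 ± 0.36. Timp1, Col5a2, Col6a1 and Dcn lost their calls without C57BL/6 3, and Col6a1 also with DESeq2 and with the replicate block. With nmSC and mySC summed as 1 set, Col6a1 was called in the other direction (-0.91; edgeR adjusted p = 0.0379). Dcn is a fibroblast marker, and the summed fibroblast list in mySC overlapped between the groups, at 4634 and 6858 against 4941, 4066 and 4299 CPM. The largest falls included F3, the initiator of clotting, at 242 and 608 against 62.9, 0 and 0 CPM (-4.43 ± 0.66), and the histone gene Hist2h2aa1, which was at least 12.4-fold lower with 0 UMIs in the knockout-labelled libraries. Rgs1, a brake on chemokine receptor signalling in lymphocytes, was at least 17.8-fold higher, with 0 UMIs in C57BL/6.

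In nmSC, class II genes rose and most class I and interferon genes did not pass. Of 1642 genes tested, 61 rose and 34 fell (5.79% called; 3.71% up, 2.07% down), with 49, 84 and 54 knockout-labelled against 197, 1156 and 77 C57BL/6 cells, and the median over all tested genes was -0.03. Leaving out C57BL/6 1 moved the count of 95 to 185, and leaving out C57BL/6 3 to 145. All 4 tested class II genes rose, with a median of 3.86. Cd74 stood at 22.6, 59.5 and 34.0 against 577, 895 and 580 CPM (3.75 ± 0.34; edgeR adjusted p = 3.23e-05). H2-Aa (4.27 ± 0.40), H2-Ab1 (3.97 ± 0.40) and H2-Eb1 (2.92 ± 0.44) were higher in all 3 knockout-labelled libraries than in any C57BL/6 library. Immunoglobulin kappa, Igkc, which only B lineage cells make, rose in the same cells from 0, 5.62 and 0 to 101, 298 and 202 CPM (5.24 ± 0.57). Ccl5 (7.39 ± 0.41) and Nkg7, a gene of cytotoxic granules (6.20 ± 0.55), rose as well, Ccl5 from 7.55, 3.37 and 0 to 638, 613 and 796 CPM. Transcripts of lymphocytes thus moved together with the class II genes, and their part in the class II values was not tested. Without cross-lineage barcodes, 25 of 27 of the named genes still tested stayed called, Ccl5 among them. Lymphocyte transcripts therefore remained in this fit, and the count cannot show their part in the class II values. Of 6 tested class I genes, H2-D1 (1.29 ± 0.32) and H2-T23 (2.20 ± 0.47) rose, and 0 of 2 interferon gamma genes passed. The H2-D1 call was lost without C57BL/6 4 and without knockout-labelled libraries 1 and 3, and the H2-T23 call without C57BL/6 3 and without knockout-labelled library 1.

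Some immediate early and stress genes rose in nmSC. Of 18 immediate early genes, 3 rose and 0 fell, with a median of 0.99, and 3 of 8 stress genes rose. Jund stood at 226, 348 and 362 against 2633, 2818 and 2064 CPM (2.93 ± 0.29; edgeR adjusted p = 5.84e-05). Klf2, a transcription factor of quiescent vessels and lymphocytes, stood at 60.4, 231 and 56.6 against 618, 903 and 1241 CPM (2.60 ± 0.46), and Ier5 rose by 1.36 ± 0.33. Cebpb, a transcription factor of acute inflammation, went from 0, 27.0 and 11.3 to 618, 580 and 823 CPM (4.86 ± 0.42; edgeR adjusted p = 2.52e-05). The groups were separate for each of these genes, and the NOD control libraries were above C57BL/6 for Jund, Klf2 and Cebpb, with Cebpb at 234, 371 and 361 CPM. Cdkn1a, the p21 cell cycle inhibitor (2.17 ± 0.29), Ddit3, a factor of the unfolded protein response (1.23 ± 0.29), and the chaperone Hspa8 (1.26 ± 0.33) rose too. The calls of Ier5 and Hspa8 were lost without C57BL/6 4 and without any one knockout-labelled library, and that of Ddit3 in 8 of 16 alternatives, among them DESeq2 and leaving out C57BL/6 3 or 4. The surface antigen genes Ly6a and Ly6c1, which differ between mouse strains, rose by 2.55 ± 0.30 and 2.84 ± 0.32.

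Matrix and sterol genes of nmSC were lower where they passed. Of 13 collagen genes, 1 fell and 0 rose, and the median was -0.54, with 0 members above 0. Col4a1, a basement membrane collagen, stood at 204, 139 and 136 against 40.5, 49.7 and 40.5 CPM (-1.88 ± 0.36; edgeR adjusted p = 0.00773). Of 25 other matrix genes, 2 fell: Hspg2, the basement membrane proteoglycan perlecan (-1.62 ± 0.32), and Sparc, a collagen-binding protein, at 3797, 6384 and 5413 against 2694, 2279 and 1686 CPM (-1.29 ± 0.29). Fdps, an enzyme of cholesterol synthesis, fell by 1.77 ± 0.36 and was the only 1 of 4 tested to pass. In the NOD control libraries these genes were near the C57BL/6 level, with Col4a1 at 142, 155 and 156 CPM and Fdps at 350, 373 and 361 CPM. Hspg2 lost its call without knockout-labelled library 3, Fdps without library 1, and Sparc without any one of the 3.

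Fewer genes could be tested in EC, where each knockout-labelled library held 26 to 30 cells. Of 505 genes, 16 rose and 15 fell (6.14% called; 3.17% up, 2.97% down), and the median over all tested genes was 0.02. Genes of the endothelial barrier and of transport did not pass the test: 0 of 10 were called, with a median of 0.35. Class II was represented by Cd74, at 178, 57.1 and 36.1 against 601, 829 and 4007 CPM (4.26 ± 0.78; edgeR adjusted p = 0.00425). Of 8 class I genes, only H2-Q4 rose (1.20 ± 0.32), narrowly past the threshold at an adjusted p of 0.0499 in edgeR, and this call was kept in only 3 of 16 alternative settings. Ccl5 had 3 UMIs in C57BL/6 against 79, a pooled ratio of 177 (95% exact interval 58.5 to 878). The T cell list in EC, given above, moved in the same direction as Ccl5, and its part was not tested.

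Besides ribosomal protein genes and their copies, genes with varied roles were called in EC. Cd59a, which protects cells from complement, stood at 244, 334 and 289 CPM in C57BL/6 and 1116, 1736 and 1236 CPM in the knockout-labelled libraries (2.21 ± 0.30; edgeR adjusted p = 0.000474). Slc39a8, a zinc and manganese transporter, went from 0, 42.3 and 0 to 887, 355 and 501 CPM (4.33 ± 0.62). Jund and Klf2 rose by 2.92 ± 0.41 and 1.96 ± 0.34, making 2 of 8 immediate early genes. Each of these 4 genes was also above the C57BL/6 range in all 3 NOD control libraries, for instance Cd59a at 1078, 1004 and 1219 CPM. Gkn3, a gene of arterial endothelium, fell from 553, 714 and 578 to 0, 118 and 33.4 CPM (-3.78 ± 0.56). Gapdh, a glycolytic enzyme with many processed copies in the genome, fell by 1.90 ± 0.41, from 431, 361 and 506 to 114, 118 and 100 CPM. Atp5k, a subunit of ATP synthase, fell by 1.41 ± 0.34. Slc39a8 lost its call without knockout-labelled library 1, Gapdh without libraries 1 and 3, and Atp5k without any one of the 3.

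T cells of the knockout-labelled libraries carried more transcripts of inhibitory receptors and of activation than those of C57BL/6. Of 6151 genes tested, 231 rose and 238 fell (7.62% called; 3.76% up, 3.87% down), with a median of 0.13. They were measured in 987, 1161 and 1187 knockout-labelled cells, named CD4 or CD8, against 111, 101 and 121 C57BL/6 cells named TC. The summed T cell markers stood at 3250, 4564 and 8435 CPM in C57BL/6 and 12724, 12257 and 12460 CPM in the knockout-labelled cells. The summed natural killer list stood at 919, 3299 and 2442 against 1311, 1206 and 1071 CPM. The cells named TC thus carried fewer T cell and, in 2 of 3 libraries, more natural killer transcripts, and the part of this difference in the results was not tested. C57BL/6 3 stood apart within its group, with fibroblast markers at 5057 CPM in its T cells against 291 and 318 CPM in the other C57BL/6 libraries and 455 to 683 CPM in the knockout-labelled ones. Leaving out knockout-labelled library 1, 2 or 3 lowered the count of 469 to 151, 156 or 151. With these libraries summed as 1 sample it was 15, and 11 of 53 of the named genes still tested stayed called. Without cross-lineage barcodes, 54 of 55 did.

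Inhibitory receptors, or checkpoints, restrain T cells that meet antigen repeatedly. Of 20 activation and checkpoint genes, 9 rose and 0 fell, with a median of 1.69. Lag3, which binds class II, stood at 0, 15.4 and 8.17 CPM in C57BL/6 and at 660, 584 and 592 CPM in the knockout-labelled libraries, a pooled ratio of 69.8 (95% exact interval 23.9 to 339; edgeR adjusted p = 1.37e-06). Pdcd1, which encodes PD-1, stood at 11.2, 7.71 and 8.17 against 308, 301 and 317 CPM, a ratio of 35.1 (11.98 to 171). Ctla4, which competes with Cd28 for its ligands, stood at 0, 23.1 and 0 against 399, 413 and 456 CPM, a ratio of 48.0 (16.4 to 233). Each of these 3 genes had 3 UMIs over all C57BL/6 T cells, which leaves the intervals wide, and the groups were separate for each. Havcr2, which encodes TIM-3, was at 0 UMIs in C57BL/6 and in the NOD control libraries and at 85.4, 66.2 and 94.5 CPM in the knockout-labelled libraries, at least 9.31-fold higher. Tox, a factor of exhausted T cells (2.84 ± 0.37), and the costimulatory receptors Icos (2.41 ± 0.36) and Tnfrsf4, or OX40 (3.84 ± 0.41), rose too. Tnfrsf4 was measured at 11.2, 30.8 and 32.7 against 529, 516 and 554 CPM. NOD control libraries were well below the knockout-labelled ones for Tnfrsf4, at 45.9, 94.9 and 29.3 CPM. They held 42, 227 and 241 T cells, of which 16.7%, 57.7% and 65.6% were cross-lineage barcodes, which limits them as a reference.

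Genes of the T cell receptor complex, its coreceptors and the gamma delta chains were higher in the knockout-labelled cells. Of 18 T cell receptor and coreceptor genes, 8 rose and 0 fell, with a median of 1.04. Cd3e, part of the signalling complex, stood at 146, 278 and 670 against 1645, 1680 and 1598 CPM (1.67 ± 0.41; edgeR adjusted p = 0.015). The coreceptor Cd4 rose by 1.98 ± 0.41, the adhesion receptor Cd6 by 1.69 ± 0.32 and the costimulatory receptor Cd28 by 1.16 ± 0.32. The calls of Cd3e and Cd28 were lost without any one knockout-labelled library. The constant genes of the alpha beta receptor did not pass, with log2 fold changes of 0.92 ± 0.41 for Trac, -0.01 ± 0.33 for Trbc1 and 0.26 ± 0.36 for Trbc2. Those of the gamma delta receptor rose: Trdc stood at 33.6, 46.3 and 49.0 against 304, 260 and 267 CPM (2.16 ± 0.33), and Tcrg-C2, with 1 UMI in C57BL/6 against 725, had a ratio of 67.5 (95% exact interval 12.1 to 2671). Among 23 lineage and homing genes, 5 rose and 3 fell, with a median of 0.91. The chemokine receptors Cxcr4 (3.04 ± 0.47) and Cxcr3 (2.52 ± 0.54), which guide effector cells into tissue, and Ikzf2, or Helios (2.44 ± 0.35), rose. Lef1, a factor of naive T cells, stood at 426, 239 and 482 against 91.6, 118 and 109 CPM and fell by 2.36 ± 0.27.

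Effector genes changed in both directions. Of 13 cytotoxic granule genes, 2 rose and 2 fell, with a median of 0.21. Gzmk, a granzyme of memory CD8 cells, had a ratio of 40.8 (95% exact interval 11.3 to 338) on 2 UMIs in C57BL/6 against 877, and Lamp1, a membrane protein of lytic granules, rose by 2.06 ± 0.46. Gzma, at 493, 2490 and 1568 against 245, 175 and 157 CPM, fell by 3.43 ± 0.43 (edgeR adjusted p = 3.66e-05). Gzmb fell by 1.498 ± 0.32 with groups that overlap, at 112, 540 and 163 against 138, 158 and 131 CPM. The Lamp1 call was lost without C57BL/6 3, and the Gzmb call without that library or any one knockout-labelled library. Of 18 natural killer receptor genes, 5 fell and 2 rose, with a median of -0.32. Those that fell were Klrb1c, which encodes NK1.1 (-3.10 ± 0.35), Klrg1 (-2.999 ± 0.39), Klra9 (-2.09 ± 0.35) and the signalling adapters Fcer1g (-1.89 ± 0.29) and Tyrobp (-1.73 ± 0.28). Klra1 rose by 3.14 ± 0.51, from 11.2, 7.71 and 32.7 to 218, 270 and 172 CPM. The Klra and Klrb1 families are close copies whose members differ between strains, and single members are uncertain for that reason.

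The summed cytokine list of T cells overlapped between the groups, at 818, 2020 and 1356 against 2035, 1998 and 2033 CPM. Of 9 cytokine genes tested, 2 rose and 1 fell, with a median of 0.65. Ifng, the interferon gamma gene, stood at 0, 108 and 32.7 against 300, 243 and 349 CPM and rose by 2.02 ± 0.43 (edgeR adjusted p = 0.00575), a call lost without any one knockout-labelled library. Tnfsf8, the CD30 ligand, rose by 2.54 ± 0.40. Il17a was at 0 UMIs in C57BL/6 and at 24.1, 29.4 and 20.8 CPM in the knockout-labelled libraries, at least 2.83-fold higher, and did not pass (edgeR adjusted p = 0.0631). Areg, a growth factor for epithelium and stroma, stood at 33.6, 717 and 8.17 against 41.9, 60.5 and 70.2 CPM. The high value of C57BL/6 3 set its direction: the fold change was -2.77 ± 0.61 with this library and 1.08 without it. Of 7 chemokines, 1 fell and 3 rose, with a median of 0.59: Ccl3 (1.48 ± 0.41), Ccl4 (1.79 ± 0.37) and Xcl1 (1.81 ± 0.44) rose. The calls of Ccl3 and Xcl1 were lost without any one knockout-labelled library. Ccl4 stood at 112, 409 and 237 against 1354, 1118 and 1264 CPM. Cxcl2, a neutrophil attractant, fell by 4.63 ± 0.59, with C57BL/6 3 again the highest at 1364 CPM against 89.6 and 114 CPM in the others, and its call was lost without knockout-labelled library 1 or 2. Ccl5 stood at 8909, 10584 and 5324 against 18325, 18486 and 19094 CPM, separate but not past the test (0.59 ± 0.38; edgeR adjusted p = 0.427). With CD4-named cells alone, the fold change of Ccl5 was -2.60 and that of Ccl3 -0.36.

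**Figure D4:**
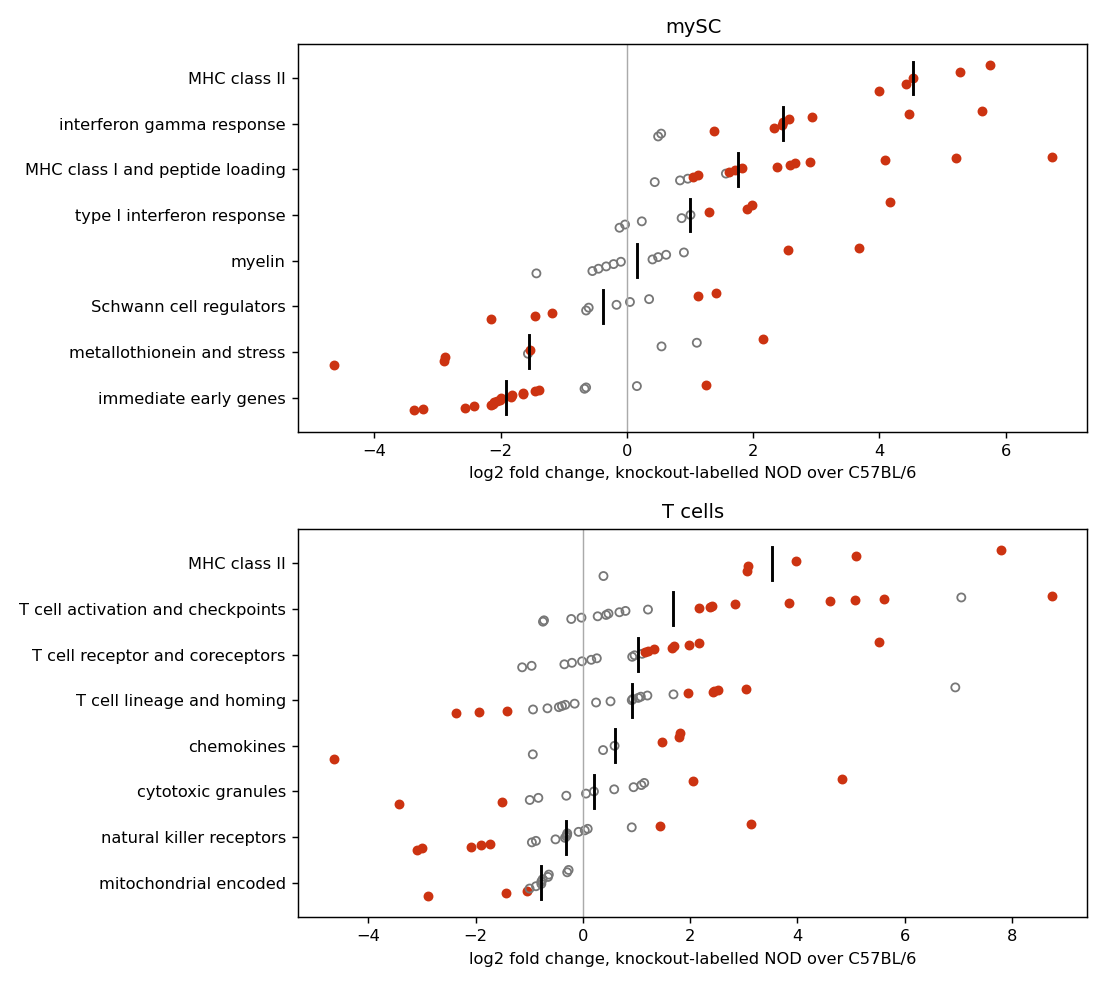
Log2 fold change, knockout-labelled NOD over C57BL/6, of each tested member of 8 gene lists in mySC and 8 in T cells; filled points passed an adjusted p of 0.05, open points did not, and the bar is the list median. In mySC the class II, interferon gamma and class I lists lie above 0 and most immediate early genes below it, with medians of 4.53, 2.47, 1.76 and -1.92.

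Class II genes rose in T cells, as in the nerve sets. Of 6 tested, 5 rose, with a median of 3.53. Cd74 stood at 123, 61.7 and 49.0 against 838, 808 and 1090 CPM (3.06 ± 0.43; edgeR adjusted p = 0.000128), and H2-Ab1 and H2-Aa rose by 3.09 ± 0.41 and 3.97 ± 0.46. H2-Eb1, with 1 UMI against 540, had a ratio of 50.3, and H2-DMb2, at 0 UMIs in C57BL/6, was at least 4.81-fold higher. Mouse T cells make little class II of their own. Igkc moved with these genes: it was at 0 UMIs in C57BL/6 T cells and at 303, 421 and 447 CPM in the knockout-labelled ones, at least 44.1-fold higher. Haemoglobin did so in 2 libraries, with Hbb-bs at 2759, 111 and 1479 CPM against 0 in each C57BL/6 library, and its call was lost without library 1 or 3. The part of B cell and red cell transcripts in the T cell results was not tested. With barcodes over 5% haemoglobin removed, a setting chosen after seeing the data, 485 genes were called. Of 19 class I genes, with a median of 0.62, 2 passed, H2-T23 (1.64 ± 0.30) and Tap1 (1.47 ± 0.36), and of 17 interferon gamma genes, with a median of 0.97, 1 rose and 1 fell. Ifngr2, a subunit of the interferon gamma receptor, was the member that fell, from 67.2, 69.4 and 40.8 to 21.7, 10.6 and 15.6 CPM (-2.35 ± 0.50; edgeR adjusted p = 0.00575). The Tap1 and H2-DMb2 calls were lost without C57BL/6 3.

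Other regulators rose in T cells as well. Jund stood at 179, 470 and 220 against 2040, 2266 and 1956 CPM (2.33 ± 0.38). Hif1a, the oxygen-sensing factor, rose by 1.72 ± 0.35 and lost its call only with the replicate block and with the knockout-labelled libraries summed. Cebpb was at 0 UMIs in C57BL/6 T cells and at 393, 392 and 412 CPM in the knockout-labelled ones, at least 45.4-fold higher, with the NOD control libraries at 230, 224 and 215 CPM. Tbc1d4, a regulator of glucose transporter traffic, was at least 15.5-fold higher. Genes that vary between strains fell far. Ly6c2 stood at 89.6, 262 and 367 against 3.88, 0.817 and 6.07 CPM (-6.57 ± 0.44; edgeR adjusted p = 2.53e-08) and was at 0 in all NOD control libraries. Rnaset2b stood at 89.6, 239 and 310 against 9.31, 4.90 and 6.07 CPM (-5.49 ± 0.37), with the NOD control libraries at 0, 0 and 4.89 CPM. Both groups of NOD libraries therefore lay below every C57BL/6 library.

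B cells differed in fewer genes. Of 2916 tested, 68 rose and 52 fell (4.12% called; 2.33% up, 1.78% down), with a median of 0.13, in 347, 381 and 379 knockout-labelled cells against 98, 33 and 29 in C57BL/6. Leaving out C57BL/6 3 or 4 moved the count of 120 to 202 or 194, and leaving out knockout-labelled library 1, 2 or 3 moved it to 61, 65 or 64. Of 20 genes of B cell identity, 0 rose and 1 fell, with a median of 0.08, beside 4.12% called over all tested genes. That gene was Fcmr, the IgM Fc receptor, at 295, 878 and 796 against 362, 322 and 326 CPM (-1.07 ± 0.29; edgeR adjusted p = 0.0393), with groups that overlap, and the call was lost in 5 of the 6 fits without 1 library. Class I and peptide loading genes rose in 5 of 17 cases and fell in 0, with a median of 0.92. H2-T23 stood at 44.3, 29.3 and 37.9 against 390, 337 and 382 CPM (2.91 ± 0.44; edgeR adjusted p = 0.000253). Tapbp, which bridges class I to the peptide transporter (1.71 ± 0.36), and the immunoproteasome subunits Psmb9 (1.503 ± 0.38) and Psmb8 (1.17 ± 0.33) rose, and Tap1, with 2 UMIs in C57BL/6, had a ratio of 9.59 (95% exact interval 2.62 to 79.8). Psmb9 lost its call without C57BL/6 1 and Psmb8 without C57BL/6 3.

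Of 10 class II genes, in which B cells are rich, 1 rose and 0 fell, with a median of 0.35. H2-DMb1, a subunit of the peptide editor, stood at 162, 351 and 152 against 702, 671 and 638 CPM (1.36 ± 0.35). H2-Aa stood at 3751, 8896 and 6560 against 12057, 11619 and 11515 CPM and did not pass (0.70 ± 0.37; edgeR adjusted p = 0.34). Of 11 interferon gamma genes, 2 rose, with a median of 0.73. Gbp2, at 0 UMIs in C57BL/6, was at least 3.48-fold higher, a call lost without C57BL/6 1. Of 26 activation and homing genes, 2 rose, with a median of 0.58. Cxcr4, which holds B cells in lymphoid tissue and marrow, stood at 44.3, 29.3 and 37.9 against 448, 693 and 845 CPM (3.76 ± 0.52; edgeR adjusted p = 8.21e-05). The NOD control libraries reached 148, 667 and 458 CPM, on 7, 367 and 349 cells. Klf2, at 222, 615 and 683 against 2508, 2533 and 2347 CPM, rose by 2.17 ± 0.40, and Jund by 3.22 ± 0.46. Cebpb, at 0 UMIs in C57BL/6, was at least 17.0-fold higher. Of 7 immunoglobulin constant genes only Igha passed, and its level lay in 1 library: 67.7, 4261 and 96.9 CPM, against 0 in C57BL/6.

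T cell transcripts were also called in B cells. Ccl5 was at 0 UMIs in C57BL/6 B cells and at 905, 993 and 1311 CPM in the knockout-labelled ones, at least 45.3-fold higher. Cd3g and Trbc2, parts of the T cell receptor, were at least 5.65-fold and 6.50-fold higher. Their part in the other B cell values was not tested. Without cross-lineage barcodes 71 genes were called, and 15 of 21 of the named genes still tested stayed called. Ly6a rose by 1.53 ± 0.36, while Rnaset2a (-1.53 ± 0.38) and Atp5k (-1.32 ± 0.31) fell. The Rnaset2a call was lost without any one C57BL/6 library or knockout-labelled library 1 or 2, and that of Atp5k without C57BL/6 1 or knockout-labelled library 1 or 3.

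A small group of genes was called in the same direction in all 5 sets, and most of them have a near-identical copy in the genome. There were 14 such genes, 4 up (Gm10260, Serinc3, Jund and Gnas) and 10 down, all 10 being ribosomal protein genes, ubiquitin fusions or their copies. Of the 14, 11 shared a stretch of at least 150 bases at 95% identity or more with another gene of the GENCODE M21 annotation. Rps18, a protein of the small ribosomal subunit, and Gm10260 had the largest of these differences, at least 5.43 and 8.44 on the log2 scale in each set. Rps18 lies on chromosome 17 (minus strand, coding positions 33952046 to 33955620, 5 exons) and Gm10260 on chromosome 13 (minus strand, coding positions 97760133 to 97760588, 1 exon, without introns), in GRCm38. Their coding sequences, each of 456 bases, are identical at 452 (99.12%). Counted from the first coding base, with the base of Rps18 first, the differences are T186C, A337C, G371A and G431A. The stretch from base 283 to 432 holds 3 of the 4, in capitals below, and shows how little tells reads of the genes apart.
Rps18: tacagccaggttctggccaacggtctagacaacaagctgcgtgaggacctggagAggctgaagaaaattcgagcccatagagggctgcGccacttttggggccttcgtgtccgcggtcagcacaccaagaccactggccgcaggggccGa
Gm10260: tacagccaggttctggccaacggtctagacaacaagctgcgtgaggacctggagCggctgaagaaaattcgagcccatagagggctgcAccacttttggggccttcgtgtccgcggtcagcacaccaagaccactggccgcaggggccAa

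In T cells, Rps18 stood at 9895, 7254 and 9464 CPM in C57BL/6 and at 74.5, 90.7 and 90.2 CPM in the knockout-labelled libraries (-7.29 ± 0.48; edgeR adjusted p = 2.53e-08). Gm10260 stood at 11.2, 0 and 8.17 against 3913, 4087 and 3872 CPM, with 2 UMIs in C57BL/6 against 14511. NOD control T cells resembled the knockout-labelled ones, at 91.8, 122 and 137 CPM for Rps18 and 4223, 6105 and 6467 CPM for Gm10260. Gm10260 took 0% to 1.56% of the summed pair in C57BL/6 over the 5 sets and 96.4% to 100% in the knockout-labelled libraries. The near-complete exchange was therefore seen in each set and in both groups of NOD libraries, as the plot of the pair shows. Summed over both genes, the T cell values were 9906, 7254 and 9473 against 3988, 4178 and 3962 CPM, a log2 ratio of means of -1.13, while in mySC the ratio was -0.18. Its cause was not tested.

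**Figure D5:**
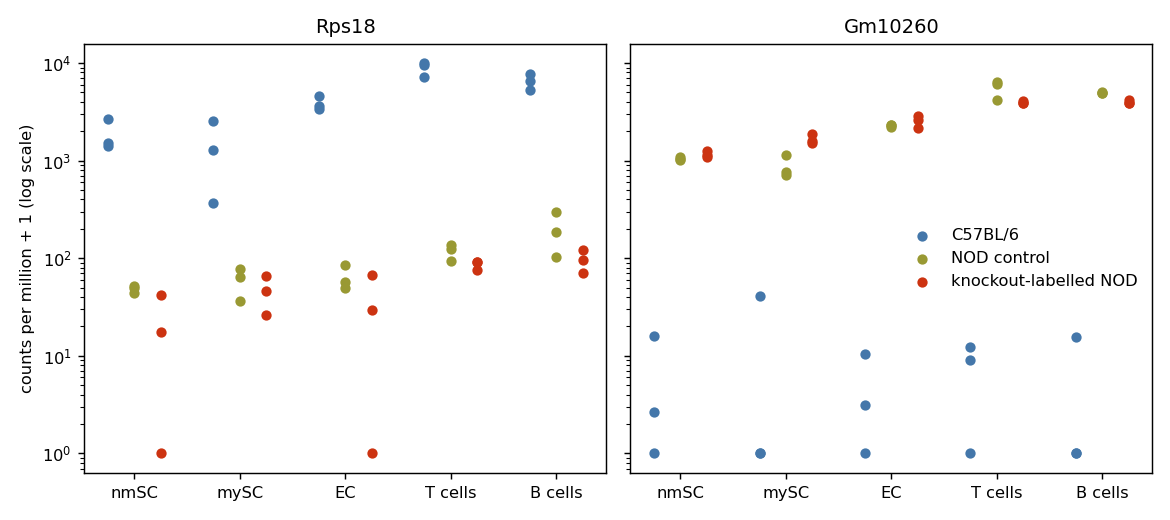
CPM + 1 (log scale) of Rps18 and of its near-identical copy Gm10260 in the 5 cell sets, 1 point per library, for C57BL/6, NOD control and knockout-labelled NOD. Rps18 is high only in C57BL/6 (7254 to 9895 CPM in T cells) and Gm10260 only in the NOD libraries (3872 to 6467 CPM in T cells).

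Other genes with copies differed in nmSC, without the near-complete exchange of Rps18 in each case. Il11ra1, the interleukin 11 receptor, stood at 309, 329 and 328 against 20.3, 33.1 and 0 CPM (-4.05 ± 0.44), and its copy Gm13305, with 3 UMIs in C57BL/6 against 74, had a ratio of 168 (95% exact interval 55.3 to 834). Tpm3, a tropomyosin, fell by 1.11 ± 0.29, and its copy Tpm3-rs7 rose by 5.68 ± 0.46. The Tpm3 call was lost in 9 of 16 alternatives, among them leaving out any one knockout-labelled library. C1rb, a copy of the complement protease gene C1ra, was at 0 UMIs in C57BL/6 and at least 102-fold higher, at 142, 182 and 121 CPM, with the NOD control libraries at 196, 144 and 203 CPM. C1ra and C1rb summed, like Tpm3 and Tpm3-rs7 summed, were higher in the knockout-labelled libraries, each by a log2 ratio of means of 0.76. Rpl27 and Rps27, called down in all 5 sets, stayed lower in each set when summed with a counted copy. Their log2 ratios of means were -2.10 to -2.91 for Rpl27 with Rpl27-ps3 and -2.32 to -3.22 for Rps27 with Rps27rt. The cause was not tested. Near-identical stretches were common among the genes that fell: they were present in 58.8% of those in nmSC, 86.7% in EC, 55.0% in T cells and 59.6% in B cells, beside 29.2%, 43.0%, 20.7% and 25.9% of all genes tested in these sets. In mySC the share was 22.6% of the falling and 30.5% of all tested genes. Among rising genes it was 21.4% to 31.3%. Over all tested genes, copies that were themselves counted were less common, at 9.26% in nmSC, 9.23% in mySC, 12.9% in EC, 8.54% in T cells and 9.40% in B cells. Among falling genes they were found for 55.9%, 17.9%, 73.3%, 22.3% and 30.8% in the same order. Among rising genes the shares were 19.7%, 12.5%, 25%, 13.9% and 25.4%. Single-gene fold changes of genes with such copies are therefore uncertain in this comparison of strains. Serinc3, a membrane protein without such a copy, rose in all 5 sets by 1.71 to 2.07 on the log2 scale, for example from 89.6, 100 and 122 to 484, 479 and 508 CPM in T cells. Its call was lost in nmSC without knockout-labelled library 1 or 3, and in mySC without C57BL/6 3.

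Ly6e, a gene of the Ly6 surface protein family that interferons induce, was called in 4 sets in unlike directions. In mySC it stood at 0 and 19.4 CPM in C57BL/6 and 377, 228 and 260 CPM in the knockout-labelled libraries (3.84 ± 0.53; edgeR adjusted p = 0.000375). In T cells it stood at 303, 840 and 514 against 148, 115 and 158 CPM (-2.49 ± 0.29; edgeR adjusted p = 1.41e-05). In B cells it stood at 1137, 1112 and 1517 against 581, 537 and 541 CPM (-1.43 ± 0.32), and in EC at 2220, 2956 and 3108 against 1459, 1381 and 835 CPM (-1.17 ± 0.31; edgeR adjusted p = 0.0499). The groups were separate in each of these 4 sets. The NOD control libraries were low in EC, at 735, 666 and 858 CPM, and in mySC, at 0, 22.1 and 27.3 CPM. The EC and B cell calls were lost without any one knockout-labelled library.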

How the data were processed

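UMI counts were deposited by the authors in a matrix of 31053 genes and 16050 mouse barcodes, with a cell type name for 15672 barcodes, and only these were used. Reads were processed with Cell Ranger 3.0.2 and mm10, per the submitters' processing notes. How the names were given, and whether doublets were removed, is not given in the sources used here. The labels' protocols name the 10x 3′ v2 kit and a choice of sequencers without saying which served which library, so sequencer and group cannot be told apart. Samples were grouped by the labels and barcodes assigned by their suffix.

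Counts were summed per library and set. Libraries with under 20 cells of a set were left out, genes were filtered with filterByExpr (minimum count 10), and TMM-scaled sums were tested with edgeR 4.0.16 (R 4.3.3, quasi-likelihood, Benjamini-Hochberg over all genes tested, threshold 0.05). A fold change is log2 of knockout-labelled over C57BL/6, followed by ± its SE. With 0 UMIs in a group the fold is a bound from 3 counts over the group. With 1 to 3 UMIs the ratio of pooled CPM is given with a 95% exact interval, which covers counting error only. DESeq2 1.42.0 was an alternative. The other alternatives were RLE size factors, no filter, a replicate block, small libraries kept, equal cells per library, leaving out Scrublet doublets (scanpy 1.11.5, 0% to 1.5% of a library) or cross-lineage barcodes, knockout-labelled libraries summed as 1 sample, merged or single names, and leaving out each library. Removal of barcodes over 5% haemoglobin was chosen after seeing the data. The fit was also run on simulated counts with the same dispersion in all genes and both groups. Unequal spread between the groups, as seen here, was not simulated. Tables and exact tests used Python 3.11.15, pandas 2.3.3 and scipy 1.17.1.

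The replicate numbers 1 and 3 occur in both groups. Members and gene lists were chosen with earlier results of these data known. Named genes were Icam1, in each set the 8 called genes that rose and the 8 that fell most with separate groups and a mean log2 CPM of at least 5, up to 6 genes of each list by adjusted p, and up to 12 genes called in every set. Gapdh, Hbb-bs, Tpm3, Il11ra1 and other examples outside this rule were named after their values were seen. Symbols occurring more than once (35) were kept apart by Ensembl identifier. Near-identical stretches were found among GENCODE M21 transcripts, and promoters are from RefSeq GRCm38.p6. A few genes that the naming rule selects are not reported here, although they stay in the counts and medians of their lists.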

Additional observations from a re-analysis of the deposited data

Results flagged for a closer look

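Ly6e was called in opposite directions in different sets, with every library of the 2 groups on its own side. Its log2 fold change was 3.84 in mySC, and -1.17, -2.49 and -1.43 in EC, T cells and B cells. The difference between the sets was not tested.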

How the results depend on the processing

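Counts of called genes depended on the settings, and where they moved by over 1.5 times the cause was not tested. Without a filter on low counts, 358 genes were called in nmSC, 121 in EC, 722 in T cells and 209 in B cells, against 95, 31, 469 and 120. With equal cells per library the counts were 60 in nmSC, 88 in mySC (against 218), 171 in T cells and 34 in B cells. With knockout-labelled libraries summed as 1 sample they were 102 in mySC, 15 in T cells and 31 in B cells; the lone sample was then assumed to vary like the C57BL/6 libraries. In mySC, 122 were called by DESeq2, 129 with the library of 7 cells kept and 142 without cross-lineage barcodes, which left 71 in B cells. Merging nmSC and mySC gave 277, beside 95 in nmSC. Leaving out 1 library gave 70 to 185 in nmSC, 108 to 380 in mySC, 22 to 46 in EC, 151 to 533 in T cells and 61 to 202 in B cells. The leukocyte difference was then 54.2 to 75.3 points, at the smallest p of 0.2, and 5 to 9 cell classes were called, with 5 without C57BL/6 1. DESeq2 moved the share of rising calls from 49.3% to 39.7% in T cells and from 56.7% to 38.0% in B cells.

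Deviations of samples with the same replicate number had correlations of -0.10 to 0.07. The knockout-labelled libraries deviated little from each other, so these correlations cannot tell whether such samples share more than a number. With the replicate block, 57 genes were called in nmSC, 164 in mySC, 34 in EC, 174 in T cells and 64 in B cells.

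Directions reversed in mySC summed with nmSC for Egr1 (0.042), Jun (0.72), Lgi4 (0.50), Col6a1 (-0.91), Junb (0.55) and Fos (0.20), in CD4-named cells for Ccl3 (-0.36) and Ccl5 (-2.60), and for Areg without C57BL/6 3 (1.08, with -3.34 the lowest value when 1 library was left out); the cause was not tested. Of the genes named and called, 18 of 31 in nmSC, 16 of 54 in mySC, 7 of 14 in EC, 11 of 55 in T cells and 11 of 23 in B cells passed in every alternative that tested them. In EC, 505 genes passed the count filter, and genes below it were not assessed in that set.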
